A study of Glycine max with 9 samples.

Results

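The transcripts described here are the 74 genes, of 56044 gene IDs in the deposited table, chosen by their mean over 9 soybean root hair libraries, which was above 1000 FPKM (fragments mapped to a gene, scaled for transcript length and library size). Glyma.17G186600, with a mean of 1308 FPKM, also passes that limit and was left out by the rule. The libraries come from Glycine max Williams 82 (written willam 82 in the labels) grown without soil in an ultrasound aeroponic system, and all carry the same genotype with no treatment named. The groups 12h, 24h and 48h hold 3 libraries each and were 276, 288 and 312 hours old, counted from sowing. Their comparison follows transcript levels of root hair cells over these ages. The step from 12h to 24h is 12 hours, from 24h to 48h 24 hours and from 12h to 48h 36 hours. If all were sown at the same time of day, the 12h group was sampled at another time of day than the rest. Age and time of day then cannot be told apart in the contrasts with 12h. No label says that libraries of a group are from different plants, and p-values here thus rest on a spread that could be technical. The mean that chose the members contains all 9 values, so their high level and their share of a library are descriptions and were not tested.

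Root hairs are single epidermal cells that extend as tubes by growth at the tip. They take up water and ions, and in legumes they are the place where nitrogen-fixing rhizobia enter the root. In any tissue a small number of genes supplies a large part of the messenger RNA. Values scaled to library size are relative. Where such genes take a larger share of a library, the share of the remaining genes is smaller. Of the gene IDs, 0 matched an entry of the RefSeq table used (assembly Glycine_max_v4.0). The members are therefore given by ID alone, with no role, and markers of root hairs or of other cell types could not be checked. In bulk samples, fewer cells of a type and less RNA per cell cannot be told apart.

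The 74 transcripts together held between 19.0% (12h replicate 3) and 49.0% (12h replicate 2) of a library's FPKM sum. That sum was not equal between libraries and ran from 695919 FPKM (12h replicate 3) to 1473440 FPKM (12h replicate 2). The FPKM sum of all other genes was also lowest in 12h replicate 3 (563404) and highest in 12h replicate 2 (751997). In the 12h libraries the share was 24.8%, 49.0% and 19.0%. It was 30.3%, 35.5% and 34.5% in the 24h libraries, and 25.3%, 24.99% and 19.7% in the 48h libraries. The lowest 24h library thus lay above the highest 48h library, while the 12h libraries ran from below all others to above all others. The mean share was 30.9% ± 15.9 for 12h, 33.4% ± 2.77 for 24h and 23.3% ± 3.16 for 48h (each over 3 libraries, with SD).

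**Figure D1:**
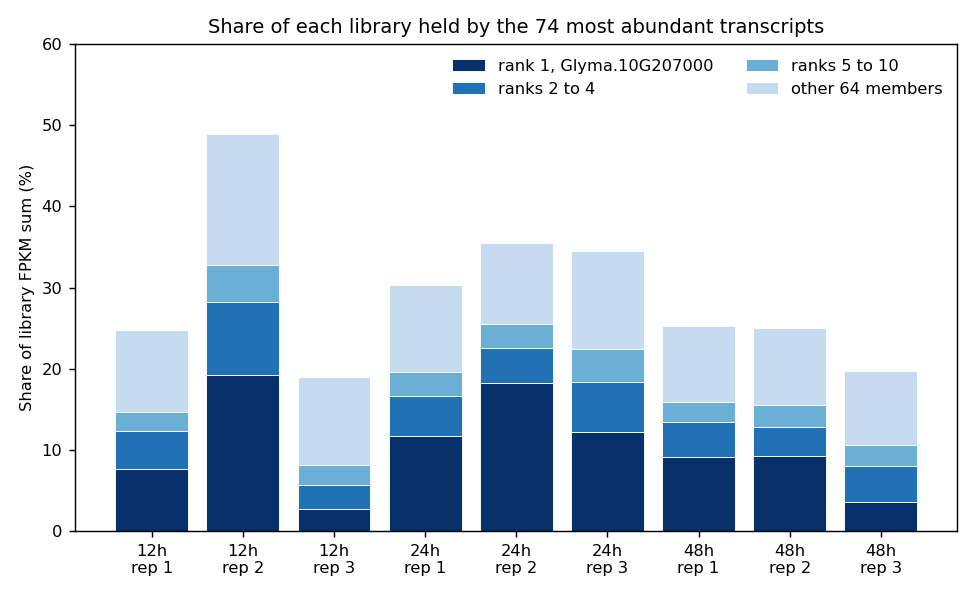
Stacked bars give the percentage of each library's FPKM sum held by Glyma.10G207000, by the members ranked 2 to 4, by those ranked 5 to 10 and by the other 64, with 1 bar per library. The bar of 12h replicate 2 reaches 49.0%, the 24h bars 30.3% to 35.5% and the 48h bars 19.7% to 25.3%.

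The part of a single gene, Glyma.10G207000, was the largest of all members in every library. It took 7.72%, 19.3% and 2.82% of the sum in the 12h libraries, 11.8%, 18.3% and 12.2% in the 24h libraries, and 9.19%, 9.29% and 3.60% in the 48h libraries. Without it the other members held 15.7% to 16.1% in the 48h libraries, 17.2% to 22.3% in the 24h libraries and 16.2% to 29.7% in the 12h libraries. At 48h this was 16.0% ± 0.230 (SD, n = 3). The 3 libraries of that group therefore differed little in the share of the other members, and the low share of 48h replicate 3 was that of Glyma.10G207000. The members ranked 2 to 4 held 2.84% to 8.92% of a library, those ranked 5 to 10 2.31% to 4.59%, and the remaining 64 9.08% to 16.2%.

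Levels within the 74 were steeply graded. The mean was above 100000 FPKM for 1 member, above 10000 for 4, above 5000 for 8 and above 2000 for 26, while 48 lay between 1000 and 2000. The median member had a mean of 1636 FPKM. In 24h replicate 2 a single member made up more than 50% of the members' summed FPKM, whereas 9 members were needed in 12h replicate 3 and 3 to 7 in the other libraries. The 31518 genes that reached 1 FPKM in 3 or more libraries, below called the tested genes, had a median of 3.23 to 6.72 FPKM per library.

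Glyma.10G207000 was the first gene in all 9 libraries. Its level was 64069, 284074 and 19626 FPKM in the 12h libraries, 115789, 205961 and 126361 FPKM in the 24h libraries, and 75888, 76616 and 27321 FPKM in the 48h libraries. All 48h libraries lay below all 24h libraries, and the 12h libraries spanned both groups with a 14.5-fold range. The difference between 48h and 24h was -1.42 ± 0.969 on the log2 scale (SE, n = 3; limma adjusted p = 0.436).

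Glyma.12G217400 was second in 7 of the 9 libraries and never below rank 3. It had 18778, 45777 and 8222 FPKM at 12h, 23649, 24009 and 27849.8 FPKM at 24h, and 18608, 15348 and 17999 FPKM at 48h. The 24h libraries again lay above the 48h libraries without overlap, and the 12h libraries were both the highest and the lowest. Glyma.08G230500 kept rank 3 or 4 throughout, with 15443, 26267 and 5977 FPKM at 12h, 12364, 13593 and 14576 FPKM at 24h, and 11355, 9533 and 10064 FPKM at 48h. Its 3 lowest values outside 12h were the 48h libraries.

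Glyma.17G230500 changed place more. It stood at 4507, 59454 and 5539 FPKM at 12h, at 11809, 9930.4 and 21599.7 FPKM at 24h, and at 5610.1, 4043 and 5451 FPKM at 48h. With 46.5% of its 9-library sum in 12h replicate 2, its mean of 14216 FPKM fell to 8561 FPKM when that library was left out. It ranked second in 12h replicate 2 and seventh at its lowest.

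Glyma.17G030200 differed from these in having its peak in another library. It had 5239, 5399.9 and 8717 FPKM at 12h, 5002, 7568 and 7366 FPKM at 24h, and 3672, 3685 and 3711 FPKM at 48h. The 48h values were close together (3689 ± 19.8 FPKM, SD, n = 3) and below all 6 other libraries. Glyma.02G083600 was highest at 24h, with 6104, 6872 and 11934 FPKM against 2767, 4253 and 3993 FPKM at 12h and 3682, 3936 and 5656 FPKM at 48h. As deposited, its 24h libraries overlapped with neither other group. After each library was rescaled to the same FPKM sum, they overlapped with those of 48h.

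Glyma.15G041300 and Glyma.10G214500 moved with 12h replicate 2 at the top and 12h replicate 3 at the bottom. The former had 3029, 15817 and 892 FPKM at 12h, 5828, 7323 and 4631 FPKM at 24h, and 3197, 4433 and 1786 FPKM at 48h. The latter had 2068, 21400.5 and 513 FPKM at 12h, 3929, 4404 and 6251 FPKM at 24h, and 1988, 2775 and 1849 FPKM at 48h. The range between their libraries was 17.7-fold and 41.8-fold. In both, the 3 libraries of 24h lay above the 3 of 48h.

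Glyma.12G217300 went the other way at the later ages. It had 4666, 6912 and 2109.9 FPKM at 12h, 3864, 2529 and 4759 FPKM at 24h, and 5645, 5896 and 5628 FPKM at 48h, so that the 48h libraries all stood above the 24h ones. Its mean was 5723 ± 150.3 FPKM in the 48h group, against 3718 ± 1122 FPKM in the 24h group (SD, n = 3). The log2 difference of 0.67 ± 0.522 (SE) did not pass (limma adjusted p = 0.490). After median-of-ratios scaling the groups overlapped, but not with equal FPKM sums or after quantile normalization.

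Of the other members among the leading 12, Glyma.05G067400 had 1380.1, 13878 and 1126 FPKM at 12h, 4855, 4842 and 7058 FPKM at 24h, and 1453, 2122 and 1109.9 FPKM at 48h. Glyma.20G247800 had 1630.2, 6614 and 5056 FPKM at 12h, 3776, 4920.2 and 7731 FPKM at 24h, and 2604, 2146 and 2270.0 FPKM at 48h. Glyma.11G034000 had 2751, 7462 and 808 FPKM at 12h, 5391, 4871 and 4148 FPKM at 24h, and 2950.5, 2969 and 3393 FPKM at 48h. In each of them all 24h libraries were above all 48h libraries. Over these 12 members limma's adjusted p-values ran from 0.499 to 0.998 for 24h against 12h, from 0.262 to 0.744 for 48h against 24h and from 0.500 to 0.907 for 48h against 12h, so none passed in any contrast.

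**Figure D2:**
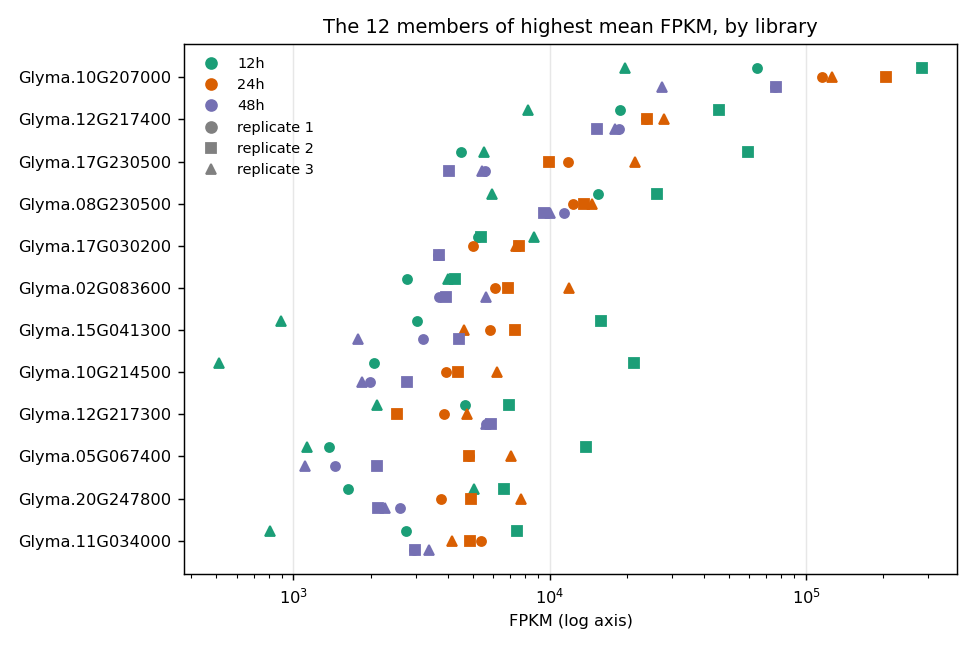
Points give the FPKM (log axis) of the 12 members of highest mean in each of the 9 libraries, coloured by group, with 1 symbol per replicate number. The 12h points of Glyma.10G207000 run from 19626 to 284074 FPKM, while its 48h points all lie below its 24h points.

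The order of the members was kept best at 48h and least at 12h. Across the 74 members, Spearman's rho between libraries of a group was 0.864 to 0.915 at 48h, 0.535 to 0.848 at 24h and 0.0566 to 0.463 at 12h. Between groups it was 0.277 to 0.666 for 12h and 24h, 0.167 to 0.825 for 12h and 48h, and 0.412 to 0.811 for 24h and 48h. These are descriptions over genes, which are not independent and which share the library, and the rule narrowed the range of levels they cover. By the median of its 8 values, 12h replicate 2 was least like the others in order (0.183), followed by 12h replicate 3 (0.411), and 48h replicate 2 was most like them (0.715).

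Only 4 genes of the whole table were among the first 10 in every library, all of them members. Of the 74, 16 stayed within the first 50 of every library, 28 within the first 100, 54 within the first 200 and 70 within the first 1000. A library's first 74 genes held 43 members in 12h replicate 3, 51 in 12h replicate 2 and 56 to 61 in the others. Conversely, 106 genes outside the set exceeded 1000 FPKM in at least 1 library. That number counts Glyma.17G186600.

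The 4 members that left the first 1000 did so in 12h replicate 3 or at 24h. Glyma.03G036400 had the widest range of all 74, 148-fold, with 1519, 553 and 694 FPKM at 12h, 1581, 122 and 19.5 FPKM at 24h, and 2562, 2879 and 1484 FPKM at 48h. It stood at rank 12 at best and at rank 5675 in 24h replicate 3. Its 24h libraries thus ranged from a level within those of 48h to far below all others. Glyma.04G223400 had 1104, 1854 and 34.0 FPKM at 12h, 1523, 1641 and 303 FPKM at 24h, and 696, 1507 and 365 FPKM at 48h, with rank 3667 in 12h replicate 3. Glyma.19G144500 had 751, 10258 and 92.7 FPKM at 12h, 1604, 2088 and 1066 FPKM at 24h, and 949, 1575 and 765 FPKM at 48h. These 3 members had the largest SDs over the 9 libraries, 2.34, 1.85 and 1.77 on the log2 scale. The fourth to pass rank 1000, Glyma.09G014400 (rank 1158 in 12h replicate 3), was singled out after its values were seen.

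At the other end, 18 members were above 1000 FPKM in all 9 libraries. Glyma.13G249600 was the steadiest, with 1848, 1979 and 2366 FPKM at 12h, 2429.6, 2069.7 and 2864 FPKM at 24h, and 2289, 2079.7 and 2227 FPKM at 48h, an SD of 0.19 on the log2 scale. Glyma.12G019800 (SD 0.29) had 1442, 2346 and 2385 FPKM at 12h, 1447, 1366 and 1833 FPKM at 24h, and 1606, 1696 and 1633 FPKM at 48h. Glyma.09G080100 (SD 0.32) had 1892, 2983 and 2629.5 FPKM at 12h, 2139.7, 1690.5 and 2394 FPKM at 24h, and 2114, 1672 and 1538 FPKM at 48h. Their highest library was 1.55, 1.75 and 1.94 times their lowest. All 3 had their worst rank in 12h replicate 2 (70, 56 and 45), where more genes stood above them.

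**Figure D3:**
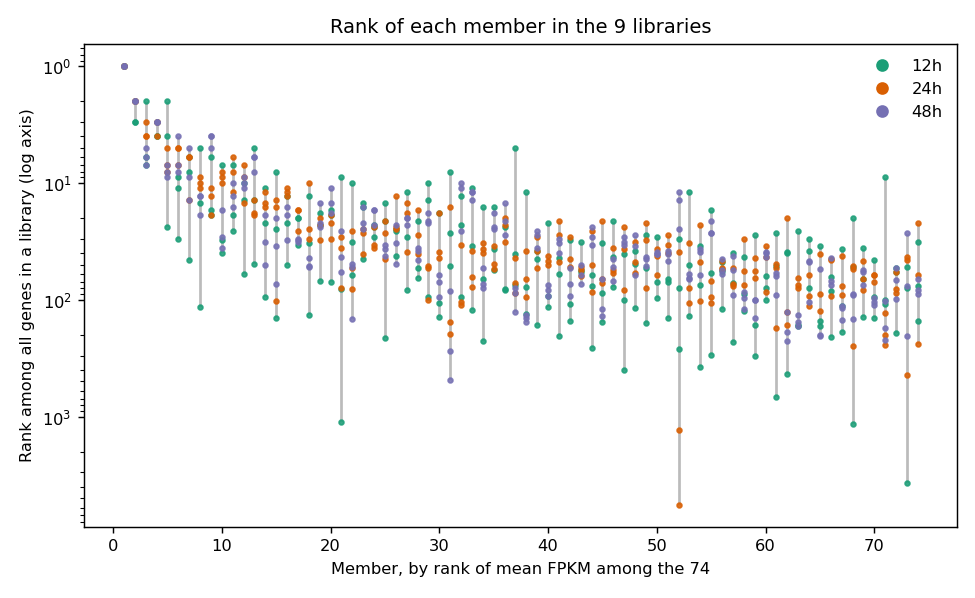
Each grey line joins the best and the worst rank of a member among all genes over the 9 libraries (log axis, rank 1 at the top), and points mark the libraries by group. The first 4 members stay between ranks 1 and 7, while Glyma.03G036400 falls to rank 5675 in a 24h library.

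The level of the members was tied to single libraries at 12h. Of the 74, 44 (59.5%) had their highest value in 12h replicate 2 and 39 (52.7%) their lowest in 12h replicate 3. Among all tested genes the shares were 8.26% with the highest value in 12h replicate 2 and 22.1% with the lowest in 12h replicate 3, and 41.1% had their lowest value in 12h replicate 2. In that library the median member stood at 3451 FPKM, against 1370.2 and 805 FPKM in the other 12h libraries, while the median tested gene stood at 3.23 FPKM, against 6.17 and 5.51 FPKM. The share with the highest value in 12h replicate 2 was graded by level: it was 45.3% among genes with a mean of 300 to 1000 FPKM, 28.3% at 100 to 300 FPKM and 5.14% at 1 to 10 FPKM. The rule used these values, and a mean over 9 libraries favours genes that are high in 1 of them. Without 12h replicate 2, 18 of the 74 members had a mean of 1000 FPKM or less. For 4 of the 74 (Glyma.08G001600, Glyma.19G144500, Glyma.18G180800 and Glyma.18G231400, named after their values were seen) that library held over 50% of the 9-library sum. Of these 4, only Glyma.18G231400 fell below 1000 FPKM without it (mean 799.8 FPKM).

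A smaller set of 8 members was highest in 12h replicate 3. It held 3 loci with consecutive IDs, Glyma.17G030100, Glyma.17G030200 and Glyma.17G030300, which had 5658, 8717 and 3081 FPKM there. By the naming convention of soybean loci the digits before the G give the chromosome and the number after it the order along it, which was not checked against an annotation. At 48h the same 3 loci were at their lowest, with 474 to 644 FPKM, 3672 to 3711 FPKM and 754 to 783 FPKM, and the highest 48h library of each was below its lowest 24h library. Another pair with consecutive IDs, Glyma.12G217300 and Glyma.12G217400, did not move alike at the later ages, since the first was higher and the second lower at 48h than at 24h as deposited. Neighbouring loci can be near-identical copies that share reads, and their separate values are then uncertain.

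**Figure D4:**
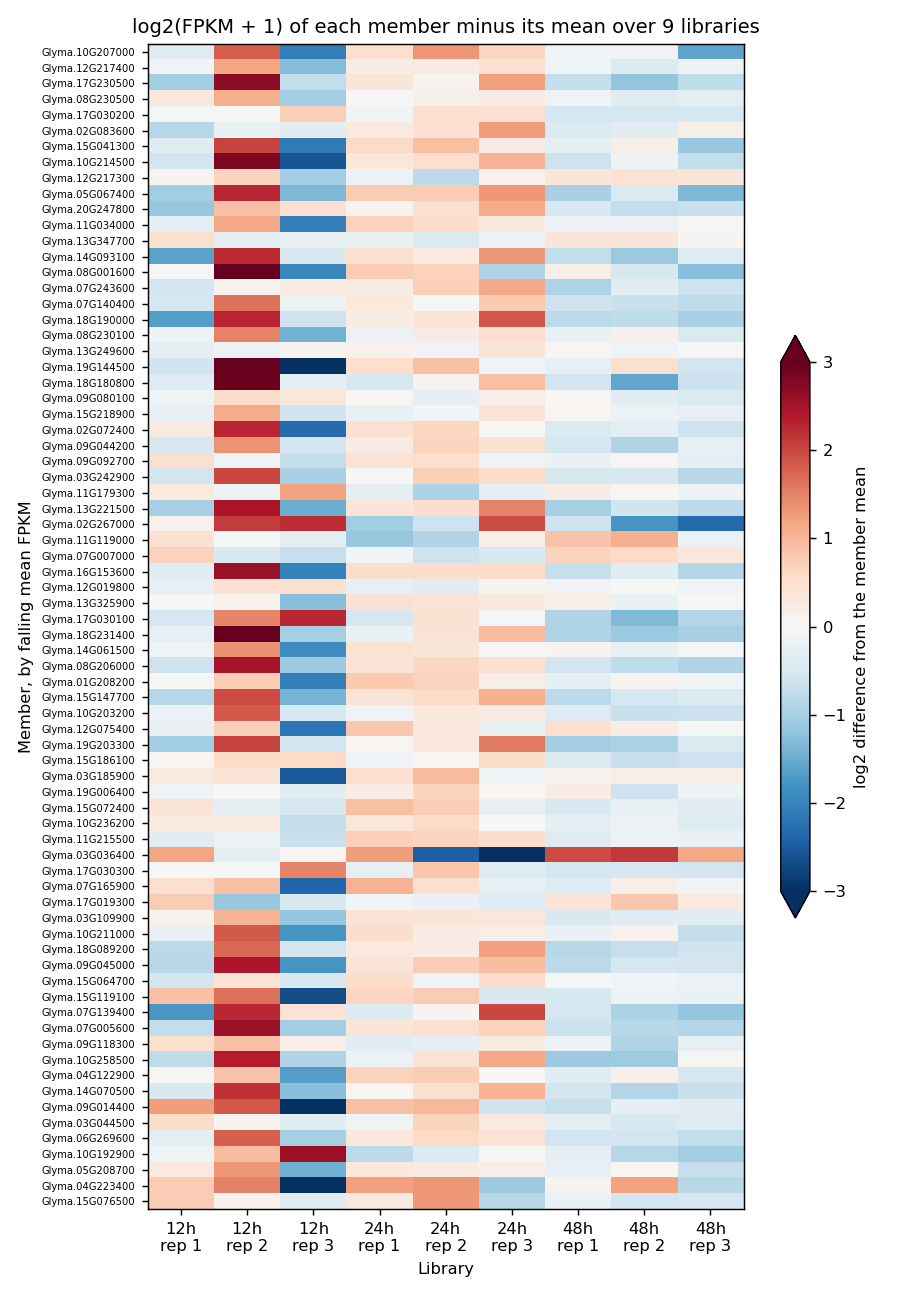
Rows are the 74 members by falling mean FPKM and columns the 9 libraries, and colour gives log2(FPKM + 1) minus the member's mean over the libraries, with the scale cut at 3 on either side. The column of 12h replicate 2 is highest for 44 members and that of 12h replicate 3 lowest for 39.

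The spread of the members within a group followed the same libraries. For log2 values, the median SD of the members was 1.39 between the 12h libraries, 0.364 between those of 24h and 0.189 between those of 48h. For all tested genes it was 0.619, 0.365 and 0.171. The rule favours genes that are high in 1 library, and 44 members peaked in 12h replicate 2, so a wide spread between the 12h libraries is partly built into the choice of members and is given as a description.

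Changes between ages were tested with limma on log2(FPKM + 1) over all tested genes, with p-values adjusted by Benjamini-Hochberg over all of them and a call at an adjusted p under 0.05. All 74 members passed the filter on low values. Log2 fold changes are on that scale throughout, where the pseudocount has little weight at these levels.

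Between 12h and 24h no member passed (limma, 0 of 74). The background was 0.0381% of all tested genes, 12 genes. At an unadjusted p under 0.05 there were 3 members (4.05%), against 9.96% of all tested genes. Of the members 55 were higher at 24h in the fit and 19 lower, with a median log2 fold change of 0.352, against 0.102 over all tested genes. Genes at 300 to 1000 FPKM and at 100 to 300 FPKM had higher medians, 0.496 and 0.446, so this direction was not particular to the 74. The smallest p-values belonged to Glyma.11G215500, Glyma.10G192900 and Glyma.02G083600. Glyma.11G215500 had 959, 1061 and 756 FPKM at 12h and 1977, 1904 and 1745 FPKM at 24h, which gave a log2 difference of 1.03 ± 0.353 (SE, n = 3; limma adjusted p = 0.499). Its 24h libraries were also above those of 48h, at 925, 1063 and 1043 FPKM. Glyma.10G192900 had 648, 1352 and 4217 FPKM at 12h and 413, 538 and 728 FPKM at 24h (log2 difference -1.50 ± 0.588 SE, n = 3; limma adjusted p = 0.499), with overlap between the groups. For Glyma.02G083600, whose values are given above, the log2 difference was 1.14 ± 0.473 (SE, n = 3; limma adjusted p = 0.499).

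The direction of the members in this contrast rested on the 12h libraries. Only 4 members lay above all 12h libraries in every 24h library (background 8.54%) and 1 lay below (background 1.73%). Without 12h replicate 2, 37 lay above (background 17.1%) and 1 below (background 26.9%), and limma called 17 of the 74 (background 12.1%), all 17 higher at 24h (background 4.38%). With any other single library left out, 4 to 7 members lay above and 1 to 7 below (backgrounds 8.54% to 19.4% and 1.73% to 7.23%). Without 12h replicate 3 the sign of the median turned, to -0.233, with 28 members higher and 46 lower. Depth is not known, and its part in the values of 12h replicates 2 and 3 was not tested.

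Between 24h and 48h most members were lower, although none passed with all 9 libraries in the fit (limma, 0 of 74). The background was 0% of all tested genes. At an unadjusted p under 0.05 there were 5 members (6.76%), against 5631 of the 31518 tested genes (17.9%). In the fit 66 of the 74 were lower at 48h and 8 higher, with a median log2 fold change of -0.710. Over all tested genes 35.4% were lower and the median was 0.228. The lowest 24h library was above the highest 48h library in 44 members (59.5%), against a background of 11.7%. In 5 members the 48h libraries were above without overlap, against a background of 32.6%.

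The size of this difference depended on the scaling, and after quantile normalization it was small. With median-of-ratios scaling, 67 members were lower at 48h, with a median log2 difference of -1.02 where that of all tested genes was -0.01, and 56 were lower without overlap (background 22.4%). With each library rescaled to the same FPKM sum, 56 were lower, the median was -0.327 where that of all tested genes was 0.532, and 28 were lower without overlap (background 3.79%). Among the leading members, Glyma.12G217400, Glyma.08G230500, Glyma.02G083600, Glyma.15G041300 and Glyma.11G034000 were then no longer lower without overlap, nor were they after quantile normalization. Quantile normalization, which by its construction gives every library the same value at the same rank, left 41 lower and 31 higher, a median of -0.08, and 17 lower without overlap (background 20%). Glyma.10G207000 and Glyma.12G217400 each held the same rank in all 24h and 48h libraries. Their difference was thus removed by construction, and they count as neither lower nor higher. Of the 44 members, those 17 (23.0% of the 74) were lower without overlap in all 4 versions, and 28 were in the first 3. How many of all tested genes were so in several versions was not counted.

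The 5 members above all 24h libraries at 48h, named after their values were seen, were Glyma.12G217300, Glyma.13G347700, Glyma.11G179300, Glyma.07G007000 and Glyma.17G019300. Glyma.07G007000 had 2694, 1227 and 1033 FPKM at 12h, 1591, 1084 and 1229 FPKM at 24h, and 2678, 2525 and 2103 FPKM at 48h. Glyma.17G019300 had 1874, 507 and 810.0 FPKM at 12h, 1042, 961 and 859 FPKM at 24h, and 1475, 1928 and 1350.2 FPKM at 48h. Of the 5, these 2 stayed without overlap in all 4 versions, and the other 3 overlapped after median-of-ratios scaling (2 of 74 higher without overlap, background 22.8%).

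The smallest p-values of this contrast belonged to Glyma.03G036400, Glyma.07G243600 and Glyma.11G215500. Glyma.03G036400 averaged 574 ± 874 FPKM in the 24h libraries and 2308 ± 731 FPKM in the 48h libraries (SD, n = 3). The log2 difference was 3.81 ± 1.14 (SE; limma adjusted p = 0.248), and its groups overlapped because 24h replicate 1 stood at 1581 FPKM. Glyma.07G243600 had 1756, 2767 and 3013 FPKM at 12h, 3007, 4177 and 5656 FPKM at 24h, and 1340.2, 2056 and 1661 FPKM at 48h. The 48h libraries lay below all 24h libraries (log2 difference -1.32 ± 0.440 SE, n = 3; limma adjusted p = 0.248). For Glyma.11G215500 the log2 difference was -0.89 ± 0.353 (SE, n = 3; limma adjusted p = 0.252), and 24h was its highest group. These last 2 members passed when the 12h libraries were left out of the fit (limma adjusted p = 0.0294 for each), with median-of-ratios scaling added to it (0.0463 and 0.0419) and without 12h replicate 2 (0.0428 and 0.0438). After quantile normalization their log2 differences were -0.65 and -0.22.

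The count of 0 depended on the 12h libraries, which enter the shared estimate of the spread. With the 6 libraries of 24h and 48h fitted alone, limma called 30 of the 74 (background 17.2%), 28 lower (background 3.48%) and 2 higher (background 13.7%) at 48h. The smallest p-values among those lower were at Glyma.07G005600 (log2 difference -1.30 ± 0.190 SE) and Glyma.05G067400 (-1.87 ± 0.281 SE), each with n = 3 per group and a limma adjusted p of 0.0294. Glyma.07G005600 had 971, 1075 and 1224 FPKM at 24h and 484, 425 and 412 FPKM at 48h. The 2 called higher were Glyma.07G007000 (0.92 ± 0.218 SE; limma adjusted p = 0.0326) and Glyma.17G019300 (0.72 ± 0.209 SE; limma adjusted p = 0.0472; n = 3 per group), and with median-of-ratios scaling neither passed (limma adjusted p = 0.167 and 0.283). With median-of-ratios scaling added to that fit, 21 were called (background 11.9%), all lower at 48h (background 5.67%), and 19 of them were also called as deposited. Without 12h replicate 2 the fit of the other 8 libraries called 19 members (background 11.8%), all lower at 48h (background 1.85%).

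The lower values at 48h were graded by expression level and were not particular to the 74. As deposited, 59.5% of the members lay below all 24h libraries at 48h, against 57.3% of the 267 genes with a mean of 300 to 1000 FPKM, 46.5% of the 987 genes at 100 to 300 FPKM, 28.4% of the 3107 at 30 to 100 FPKM, 13.2% of the 6665 at 10 to 30 FPKM and 6.42% of the 18976 at 1 to 10 FPKM. The medians of the log2 difference were -0.71, -0.64, -0.43, -0.15, 0.16 and 0.33 in the same order. Median-of-ratios scaling and equal FPKM sums shifted the shares but kept the order of the classes. After quantile normalization the shares lay between 19.96% and 24.0% in all 6 classes. The classes were formed by the mean that contains the compared values, and the difference between them was not tested.

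**Figure D5:**
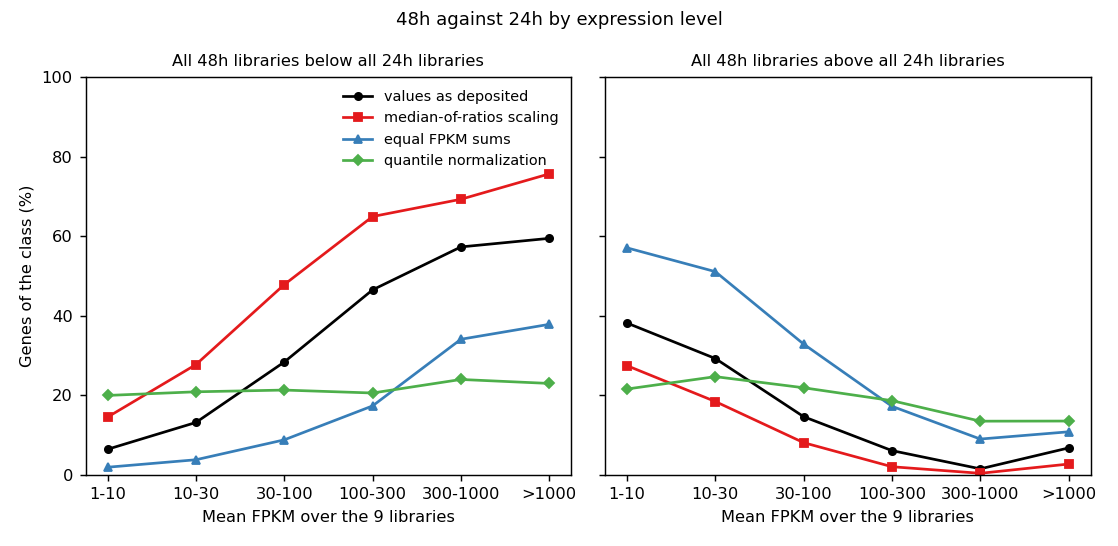
Percentage of tested genes in 6 classes of mean FPKM whose 48h libraries all lay below (left) or above (right) all 24h libraries, for the deposited values and 3 rescaled versions. As deposited, the left line rises from 6.42% in the class of 1 to 10 FPKM to 59.5% among the 74 members, while the line after quantile normalization stays between 19.96% and 24.0%.

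Between 12h and 48h no member passed (limma, 0 of 74). The background was 0.117% of all tested genes, 37 genes. The members at an unadjusted p under 0.05 numbered 5 (6.76%), against 10.8% of all tested genes. As deposited, 54 members were lower at 48h and 20 higher, with a median log2 fold change of -0.439, against 0.341 over all tested genes. The 48h libraries lay below all 12h libraries in 9 members (background 2.23%) and above them in 0 (background 19.8%). These counts rested on single 12h libraries. Without 12h replicate 1, 16 lay below (background 4.54%) and 4 above (background 39.4%). Without 12h replicate 3, 26 lay below (background 5.83%) and 1 above (background 30.2%). Without 12h replicate 2, 10 lay below (background 9.25%) and 8 above (background 24.9%). After quantile normalization 3 lay below (background 5.6%) and 9 above (background 10%). The sign of the median fold change also turned in these last 2 versions. Without 12h replicate 2, 48 members (64.9%) were higher with a median of 0.205, against 65.4% and 0.149 over all tested genes. After quantile normalization 45 (60.8%) were higher with a median of 0.148, against 55.7% and 0.0511. With median-of-ratios scaling 66 were lower (89.2%, against 51.4% of all tested genes), and 15 lay below without overlap (background 7.43%). With equal FPKM sums 45 were lower (60.8%, against 13.7% of all tested genes), and 9 lay below without overlap (background 1.30%).

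Glyma.02G267000, Glyma.17G030100 and Glyma.10G192900 had the smallest p-values in this contrast. Glyma.02G267000 had 1119.9, 4364 and 4704 FPKM at 12h, 490.2, 658 and 3926 FPKM at 24h, and 665, 296 and 201 FPKM at 48h. Every 48h library was below every 12h library, a log2 difference of -3.06 ± 0.803 (SE, n = 3; limma adjusted p = 0.293). Glyma.17G030100 had 818, 3256 and 5658 FPKM at 12h, 842, 1621 and 1160.1 FPKM at 24h, and 639, 474 and 644 FPKM at 48h (log2 difference -2.09 ± 0.615 SE, n = 3; limma adjusted p = 0.388). Glyma.10G192900 stood at 581, 394 and 345 FPKM at 48h, below all 12h libraries (log2 difference -1.85 ± 0.588 SE, n = 3; limma adjusted p = 0.423). These contrasts share libraries with those given before and are no separate evidence.

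Over the 3 ages together no member passed limma's F test (0 of 74; background 0.0286%, 9 genes). An unadjusted p under 0.05 was reached by 6 members (8.11%) and by 13.6% of all tested genes. The smallest p-values were those of Glyma.02G267000, Glyma.17G030100 and Glyma.03G036400, each with a limma adjusted p of 0.365. Without 12h replicate 2 the test called 13 members (background 9.91%). By group means, 38 members were highest at 12h, 30 at 24h and 6 at 48h, and by group medians, which give 12h replicate 2 less weight, 15, 53 and 6. Among all tested genes 17.4% were highest at 12h, 31.8% at 24h and 50.8% at 48h by group medians. The shares of the members were 20.3%, 71.6% and 8.11% in the same order. By group means 16.1%, 30.04% and 53.8% of all tested genes were highest at 12h, 24h and 48h. Of the members these were 51.4%, 40.5% and 8.11%.

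The limit of 1000 FPKM separated no distinct group. The 3 members just inside were Glyma.05G208700 (mean 1013 FPKM), Glyma.04G223400 (1003 FPKM) and Glyma.15G076500 (1002 FPKM), and just outside were Glyma.12G073100 (994 FPKM), Glyma.04G083200 (984 FPKM) and Glyma.17G023000 (979 FPKM). Glyma.05G208700 had 1102, 2210.0 and 332 FPKM at 12h, 1118, 1071 and 1024 FPKM at 24h, and 762, 942 and 557 FPKM at 48h. Glyma.15G076500 had 1490.4, 984 and 698 FPKM at 12h, 1086, 2225 and 505 FPKM at 24h, and 780.0, 609.7 and 636 FPKM at 48h. Glyma.12G073100 had 831, 1604 and 445 FPKM at 12h, 1108, 1257 and 1186 FPKM at 24h, and 849.6, 866 and 797 FPKM at 48h. Genes on either side of the limit thus had values that overlapped in all groups. By their IDs the 74 members lie on all 20 chromosomes, with 8 on chromosome 15, 7 on chromosome 10 and 1 to 6 on each of the others.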

How the data were processed

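RNA of soybean root hair cells was sequenced in 9 TruSeq libraries, per the labels. The deposited values are FPKM, computed by the authors for 56044 gene IDs in 1 table, whose name refers to tissue culture while the labels say root hair cells. Per the submitters' processing notes, TopHat2 2.1.0 and Cufflinks 2.2.1 were used. For genome build and annotation, the sources used here give no name. Over 36 pairs of libraries, 1.44% to 5.78% of genes under 0.2 FPKM in both lay within 1% of the most common ratio, so whole reads were not recovered and depth is unknown.

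The 31518 genes that reached 1 FPKM in 3 or more libraries were fitted on log2(FPKM + 1) with limma 3.58.1 (R 4.3.3), with an intensity trend, 1 mean for each group and prior degrees of freedom of 5.893. The fit was also run on simulated data in which a gene had the same spread in all groups. In these libraries the spread differed between groups, so no conclusion is drawn from that run. Shares, ranks and overlaps were computed with Python 3.11.15. The alternatives were pseudocounts of 0.1 and 0.25, filters of none and of 5 FPKM, rescaled values, a replicate block, fits of the 6 libraries compared and leaving out each library. Scaling to equal FPKM sums, scaling combined with 6 libraries, and all comparisons of overlap were added after seeing the data.

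Named are the 12 members of highest mean, the members at the limit, the 3 of largest and of smallest SD, the first gene of any library, and called members or, with fewer than 3, the 3 of smallest p. The members and lists were chosen with earlier results of these data known.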

Additional observations from a re-analysis of the deposited data

How the results depend on the processing

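In the order 24h against 12h, 48h against 24h, 48h against 12h and 3 ages, all 9 libraries gave 12, 0, 37 and 9 genes and 0 members in each. Leaving out 1 library gave 2 to 3803, 0 to 3730, 1 to 58 and 2 to 3123 genes, and 0 to 17, 0 to 19, 0 and 0 to 13 members. The highest counts of members are without 12h replicate 2, and the only other library whose absence gave a member was 24h replicate 1, with 1 in the F test (Glyma.03G036400, limma adjusted p = 0.0393). For 24h against 12h the count of genes was 2 with no filter, 5 with median-of-ratios scaling or quantile normalization, 3 with equal FPKM sums and 6 with the 6 libraries compared and scaling. For 48h against 24h it was 2 with a pseudocount of 0.1 or 0.25, 1 with no filter, 1 with equal FPKM sums, 5412 (30 members) with the 6 libraries compared and 3742 (21 members) with scaling added. For 48h against 12h it was 2 with no filter, 22 with the filter at 5 FPKM, 3 with median-of-ratios scaling, 9 with quantile normalization, 62 with the 6 libraries compared and 19 with scaling added. For the 3 ages it was 35 with either pseudocount, 3 with no filter, 2 with median-of-ratios scaling, 4 with quantile normalization and 17 with equal FPKM sums. The replicate block gave 21, 4, 102 and 81 genes and 0 members in each. Same-numbered libraries of different groups deviated together with correlations of -0.0778 to 0.351 across genes (median 0.0471). For libraries with other numbers the range was -0.457 to 0.229 (median -0.00321). The labels state no pairing, and the numbers were not taken as pairs. The 9 fold changes named by p-value kept their sign in all 19 alternative fits each, but 5 of them moved by over 1.5 times. Without 24h replicate 3, Glyma.03G036400 (48h against 24h) went from 3.81 to 2.33. Without 12h replicate 3, Glyma.10G192900 went from -1.50 to -0.78 (24h against 12h) and from -1.85 to -1.12 (48h against 12h). For 48h against 24h, Glyma.07G243600 went from -1.32 to -0.65 with quantile normalization, and Glyma.11G215500 from -0.89 to -0.22 with it and to -0.51 with equal FPKM sums. The number of members was 26 at a limit of 2000 FPKM and 56 to 78 with 1 library left out. The share of the FPKM sum was 21.9% to 36.9% at 12h, 32.4% to 35.0% at 24h and 22.3% to 25.1% at 48h with 1 library left out. Without Glyma.10G207000 it was 19.4% at 24h and 16.0% at 48h, and with members chosen by the median it was 30.6% at 24h. The cause of the other shifts was not tested. Depth is unknown, so no counting error can be given.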
